A study of Caenorhabditis elegans with 33 samples.

Results

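F1 animals irradiated in their own lifetime were compared with F1 animals whose parents alone had been irradiated, in the N2 wild type of the nematode *Caenorhabditis elegans*. The 6 libraries were chosen by their labels, 3 of the exposed and 3 of the recovery group of the second generation, among 33 libraries in 11 groups of 3. Exposed animals received chronic gamma radiation at 50 mGy per h for 65 h, from synchronised embryos to the L4 or young adult stage, and their F0 parents had received the same. Recovery animals descended from F0 animals irradiated in this way and grew without radiation in F1. Both groups therefore share irradiated parents and differ in their own exposure, which is the question the comparison addresses. F1 controls, from a line never irradiated, are given beside both groups. All animals were cultured at 19 °C on plates with *Escherichia coli* OP50. RNA came from entire animals, so fewer cells of a type and less RNA per cell cannot be told apart. The labels give both L4 and young adult as the stage.

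Ionizing radiation breaks DNA and produces reactive oxygen species. In *C. elegans* the p53 homologue CEP-1 answers DNA damage in the germ line by raising *egl-1* and *ced-13*, which start apoptosis, while heat shock factor HSF-1 raises the small heat shock genes when proteins misfold and SKN-1 raises detoxification genes under oxidative stress. At the L4 to adult transition, animals also replace their cuticle and begin to make yolk, so genes of collagens, lipid metabolism and vitellogenins change quickly with age.

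Total counts of the 6 libraries ran from 34.02 to 60.8 M, and the whole series from 27.7 to 60.8 M. The share of counts in ribosomal RNA genes was 3.51% to 5.12% in exposed, 4.53% to 8.15% in recovery and 6.86% to 12.7% in control libraries. Several measures that sum over many genes also differed between exposed and recovery libraries. Markers of body wall muscle summed to between 6673 and 7545 CPM (counts scaled to library size with edgeR's TMM factors) in exposed against 5428 to 5635 CPM in recovery animals. Neuron markers summed to 509 to 517 against 450 to 471 CPM, intestine markers to 1173 to 1207 against 1066 to 1100 CPM, pharynx markers to 387 to 401 against 357 to 362 CPM, and male markers to 55.6 to 60.98 against 49.24 to 54.99 CPM, with no overlap. Germline, hypodermis and spermatheca and uterus markers overlapped between the groups, with higher means in exposed libraries. Such sums rest mostly on the most abundant members. Median log2 fold changes were 0.28 for muscle, 0.1 for neuron, 0.14 for intestine, 0.22 for pharynx and 0.03 for male markers, against -0.01 over all genes tested. Of the 16 male markers tested 56.2% were higher in exposed animals, against 48.8% of all genes, and none was called. The cuticle score, a mean of log2 CPM over the lists of cuticle collagens and of moulting and hedgehog-related genes, was 3.39 to 3.6 in exposed and 3.14 to 3.31 in recovery libraries. No marker of these 8 lists was at 0 in the 6 libraries. The part of these differences in the results below was not tested beyond the covariate fits named there.

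**Figure D1:**
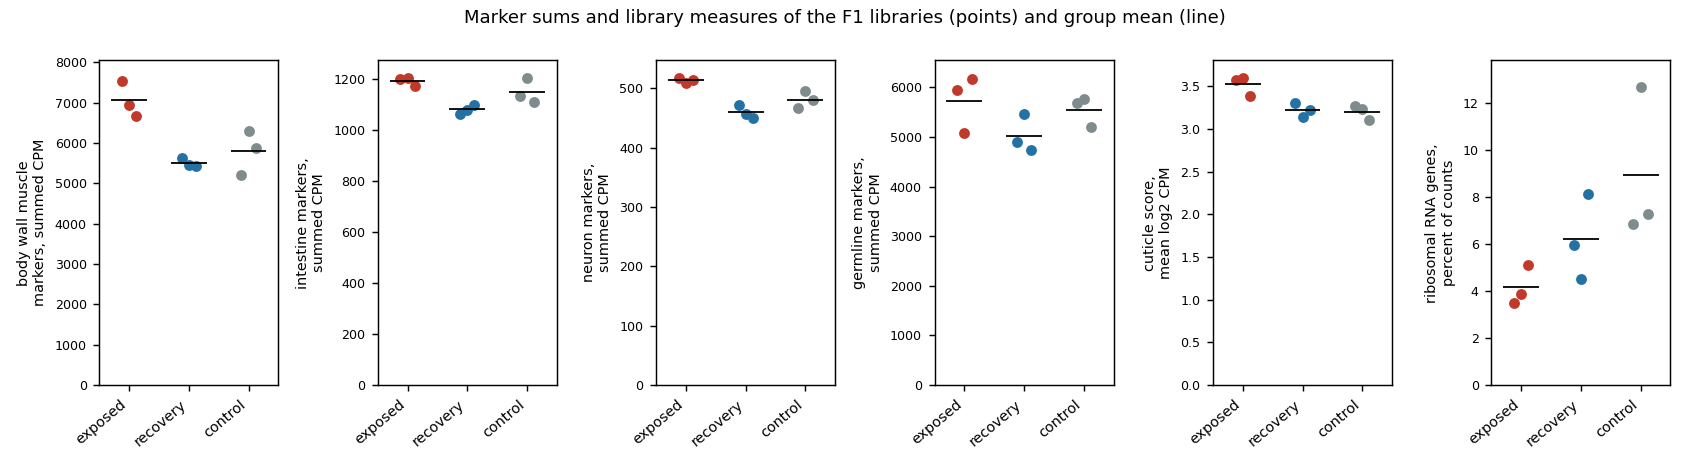
Summed CPM of 4 marker lists, the cuticle score in mean log2 CPM and the percent of counts in ribosomal RNA genes, for each F1 library (points, 3 per group) with the group mean (line). Exposed libraries lie above recovery libraries in the muscle, intestine and neuron sums and in the cuticle score, and overlap them in the germline sum and the ribosomal RNA percentage.

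Of 17627 genes tested, 255 (1.45%) were called at an edgeR adjusted p under 0.05, 162 of them higher (0.919%) and 93 lower (0.528%) in exposed than in recovery animals. Changes were small: 12 of the higher and 4 of the lower calls were at least 2-fold, and the median size of the log2 fold change was 0.48 among higher and 0.61 among lower calls. The 3 libraries of one group lay above the 3 of the other in all 255 called genes and in 5287 genes (30%) of all tested. Leaving out exposed replicate 1, 2 or 3 gave 213, 26 or 178 calls, and leaving out recovery replicate 1, 2 or 3 gave 116, 42 or 73. DESeq2 called 495 genes. In the same fit 259 genes (1.47%) were called between exposed and control and 495 (2.81%) between recovery and control animals, 362 higher (2.05%) and 133 lower (0.755%). These comparisons share libraries with the first, so only the values of single genes are set beside each other here. Where their p-values are given for single genes, they are not independent of the first comparison.

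**Figure D2:**
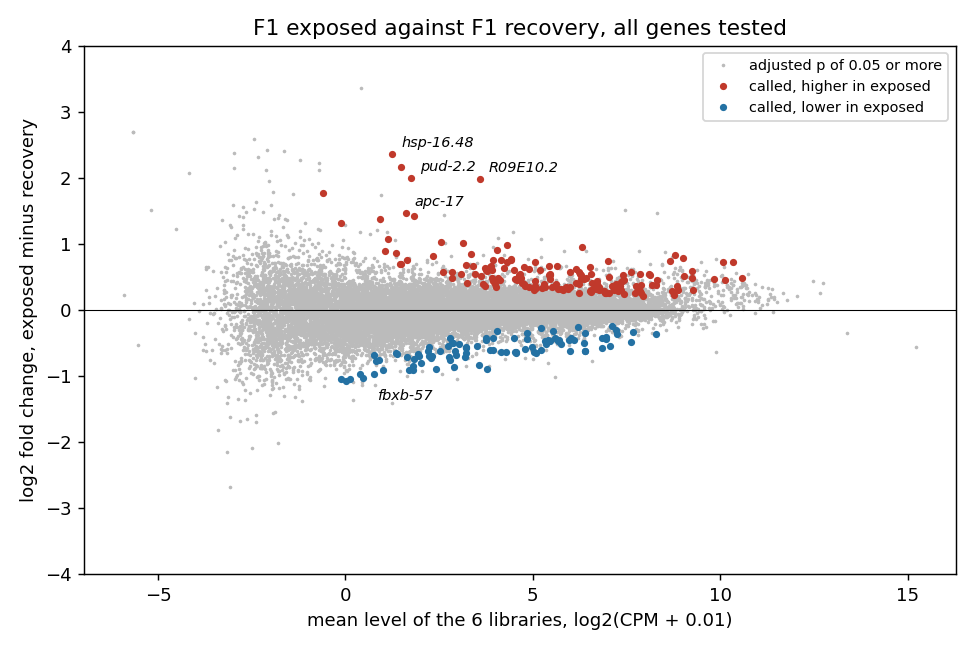
Log2 fold change of exposed over recovery animals against the mean level of the 6 libraries, as log2(CPM + 0.01), for each gene tested. Red and blue points are the 162 higher and 93 lower calls, and 6 genes beyond a log2 fold change of 4 are not drawn.

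The clearest difference was in *R09E10.2*, a protein-coding gene of unassigned function (WBGene00011172, chromosome IV, 10317563 to 10318299, minus strand, WBcel235). It was at 17.9, 19.7 and 19.8 CPM in exposed, 4.56, 4.73 and 5.24 CPM in recovery and 5.4, 4.07 and 4.67 CPM in control libraries. Every exposed library stood far above the other 6, and recovery and control libraries overlapped. The gene was 3.96-fold higher in exposed than in recovery animals (log2 fold change 1.98 with an SE of 0.18, edgeR adjusted p = 1.4e-07), and its call was kept in all 16 alternative settings.

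A pair of small heat shock genes, whose products hold unfolded proteins in solution, had the largest fold changes among the called genes. *hsp-16.48* (WBGene00002020, chromosome V, 9089280 to 9089766) was at 3.83, 3.71 and 4.38 CPM in exposed, 0.694, 0.882 and 0.763 CPM in recovery and 0.557, 0.716 and 0.839 CPM in control libraries. It was 5.13-fold higher in exposed than in recovery animals (log2 fold change 2.36 with an SE of 0.45, edgeR adjusted p = 0.0081), and exposed libraries did not overlap with either of the others. *hsp-16.1* (WBGene00002015, chromosome V, 9087293 to 9087782) was at 4.29, 5.40 and 4.03 CPM in exposed against 0.786, 1.07 and 1.25 CPM in recovery and 0.580, 0.490 and 1.12 CPM in control libraries. This 4.49-fold difference (edgeR adjusted p = 0.016) was no longer called without exposed replicate 2 or without any one of the recovery replicates, nor with the cuticle score as a covariate (log2 fold change 1.98 to 2.32, adjusted p up to 0.11). Each symbol stands for 2 near-identical genes at one cluster, and how reads were divided between the copies is uncertain. The second copies were not called, at 1.36 ± 0.160 against 0.717 ± 0.261 CPM for *hsp-16.1* (WBGene00002017) and 2.14 ± 0.856 against 0.984 ± 0.792 CPM for *hsp-16.48* (WBGene00002019) (mean ± SD over n = 3 libraries, and by edgeR an adjusted p = 0.36 and 0.38).

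The rest of the heat shock genes did not pass the test. Of 14 small heat shock genes 2 were called, both higher, where 0.919% of all genes tested were called higher. The median log2 fold change of the list was 0.41 against -0.01 over all genes tested. Counts were far higher for *hsp-16.2*, at 463, 542 and 526 CPM in exposed against 334, 343 and 369 CPM in recovery libraries, and for *hsp-16.41*, at 524, 541 and 561 against 336, 367 and 349 CPM. With reads of the near-identical copies divided in an unknown way, true levels cannot be compared between these genes. Neither pair of groups overlapped, yet neither gene was called (edgeR adjusted p = 0.37 and 0.22). *hsp-70*, an inducible Hsp70 chaperone, was at 364, 417 and 397 CPM in exposed, 252, 288 and 308 CPM in recovery and 132, 180 and 238 CPM in control libraries. Recovery libraries lay between the other groups, and the gene was called between exposed and control (edgeR adjusted p = 0.039) but not between exposed and recovery (adjusted p = 0.46) or recovery and control animals (adjusted p = 0.28). None of the 32 Hsp70, Hsp90 and co-chaperone genes was called, with a median log2 fold change of 0.08.

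Of 27 genes tested that report on the insulin pathway 3 were called, all higher, where 0.919% of all genes tested were called higher. They were *pud* genes, first described as more abundant in proteomes of *daf-2* mutants. *pud-2.2* was at 5.59, 5.94 and 4.64 CPM in exposed, 1.45, 1.04 and 1.53 CPM in recovery and 1.48, 1.51 and 1.17 CPM in control libraries. Only the exposed libraries were high, at 3.99-fold over recovery (log2 fold change 2.00 with an SE of 0.38, edgeR adjusted p = 0.008). *pud-3* was 1.67-fold higher, at 148, 203 and 129.5 against 106, 82.3 and 98.5 CPM, and *pud-4* 1.55-fold higher, at 79.7, 103.9 and 77.4 against 56.9, 51.7 and 60.4 CPM (edgeR adjusted p = 0.012 and 0.0099). The list had no lower call and a median log2 fold change of 0.18. All 3 calls ended without exposed replicate 2 and without recovery replicate 2, and that of *pud-3* also without recovery replicate 3, with adjusted p up to 0.06, 0.15 and 0.13 in the order given. The *pud-2* genes have near-identical copies, so the level of *pud-2.2* alone is uncertain.

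**Figure D3:**
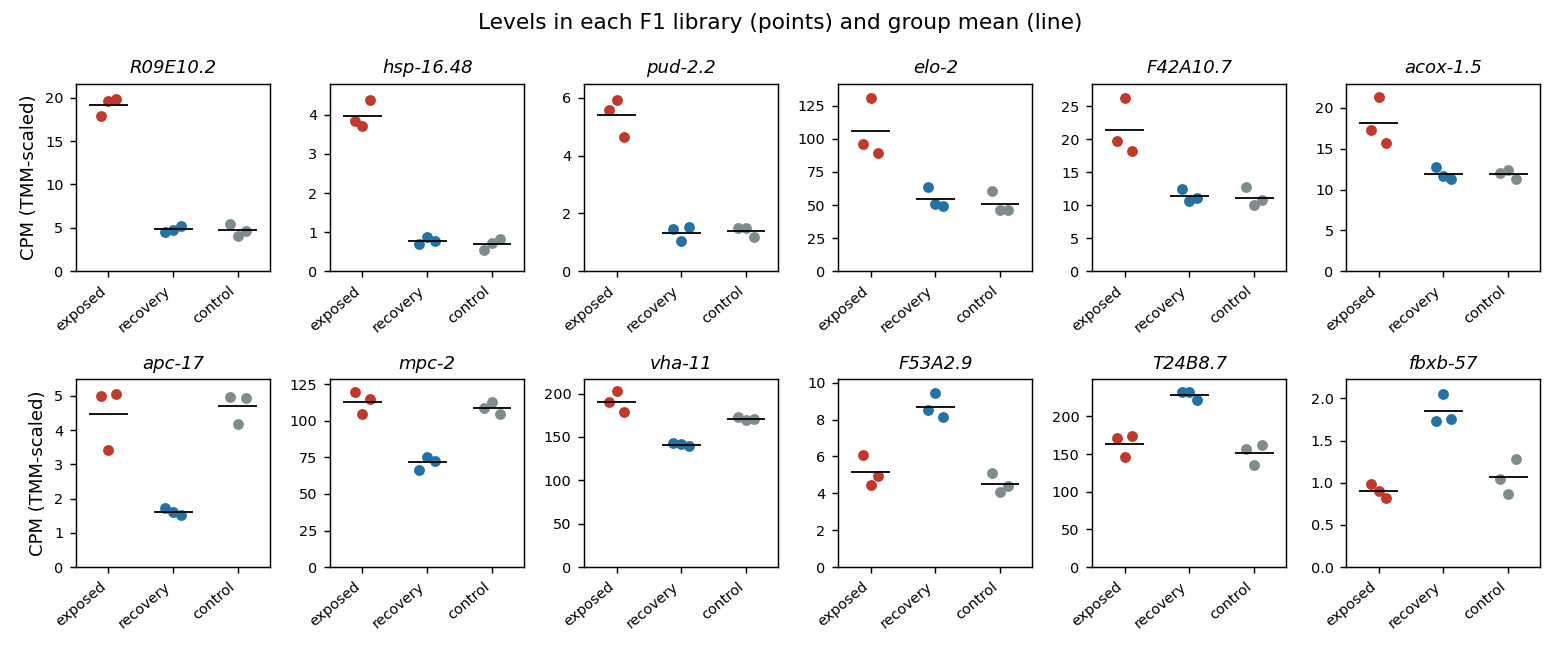
Level of 12 genes in CPM in each F1 library (points, 3 per group) with the group mean (line), each on its own axis from 0. In the upper row exposed libraries lie above recovery and control libraries. In the lower row recovery libraries lie apart from both others, below them for *apc-17*, *mpc-2* and *vha-11* and above them for *F53A2.9*, *T24B8.7* and *fbxb-57*.

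Within 4 lists of lipid genes all calls were higher, where 0.919% of all genes tested were called higher and 0.528% lower. *elo-2*, an elongase that makes palmitate into longer fatty acids, was at 96.4, 131 and 89.6 CPM in exposed against 63.4, 51.1 and 49.0 CPM in recovery and 60.5, 46.2 and 46.6 CPM in control libraries. It was 1.94-fold higher than in recovery animals (log2 fold change 0.95 with an SE of 0.20, edgeR adjusted p = 0.014), with exposed replicate 2 the highest library. *acox-1.5*, an acyl-CoA oxidase of peroxisomal beta-oxidation, was at 17.3, 21.4 and 15.7 against 12.8, 11.7 and 11.3 CPM, 1.52-fold higher (edgeR adjusted p = 0.0045), and controls were at 12.01, 12.4 and 11.3 CPM. The acyl-CoA synthetase genes *acs-14* and *acs-1*, which activate fatty acids, were 1.46-fold and 1.45-fold higher (edgeR adjusted p = 0.0045 and 0.01). The peroxisomal enzyme gene *maoc-1*, the fatty acyl dehydratase gene *hpo-8* and the lipid droplet coat gene *plin-1* were 1.25-fold, 1.18-fold and 1.2-fold higher (edgeR adjusted p = 0.049, 0.033 and 0.042). By list, 2 of 19 peroxisomal beta-oxidation, 2 of 22 acyl-CoA synthetase, 2 of 22 elongase and desaturase and 1 of 39 lipid binding and lipase genes were called, with median log2 fold changes of 0.11, -0.08, 0.11 and 0.18. Every one of these 7 calls ended without exposed replicate 2. Those of *acox-1.5* and *acs-14* held without each of the other 5 libraries, those of *elo-2* and *acs-1* also ended without recovery replicates 2 and 3, and those of *maoc-1*, *hpo-8* and *plin-1* ended without any one library. The largest adjusted p in this range was 0.34, for *maoc-1*.

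A few detoxification genes were called higher, at 1 or 2 genes a family against 0.919% of all genes. The glutathione S-transferase genes *gst-26* and *gst-36* were the only calls among 46 (median log2 fold change 0.23). *gst-26* was at 28.4, 30.02 and 21.6 CPM in exposed against 17.03, 15.6 and 14.7 CPM in recovery libraries, 1.69-fold (edgeR adjusted p = 0.0038), and *gst-36* at 82.7, 101 and 89.04 against 62.9, 60.8 and 58.8 CPM, 1.49-fold (adjusted p = 0.014). Control libraries were at 51.3, 46.6 and 57.8 CPM for *gst-36*, below every recovery library, although recovery and control animals did not differ by the test (edgeR adjusted p = 0.42). The cytochrome P450 gene *cyp-25A2*, 1 of 69 of its family, was 1.59-fold higher, and *pmp-1*, a peroxisomal transporter and 1 of 46 ABC transporter genes, 1.57-fold higher (edgeR adjusted p = 0.024 and 0.0041), and both families had medians below 0, at -0.08 and -0.06 on the log2 scale. A single call in families of this size is near the share over all genes. *skn-1*, the stress transcription factor grouped among the 30 antioxidant genes, was at 173, 161 and 175 against 138, 133 and 132 CPM, 1.26-fold higher (edgeR adjusted p = 0.022), and no enzyme of that list was called. These 5 calls ended without exposed replicate 2, at adjusted p of 0.05 to 0.27 where each was weakest. Those of *gst-36* and *cyp-25A2* also ended without recovery replicates 2 and 3, and that of *skn-1* without any one library.

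In the lists of intestinal and antimicrobial genes all calls were higher, where 0.919% of all genes tested were called higher. Of 28 intestinal protease and peptide transporter genes 3 were called, and of 14 intestine markers 1, with median log2 fold changes of 0.16 and 0.14. *pept-1*, the intestinal peptide transporter, was at 51.01, 66.1 and 42.3 CPM in exposed, 39.0, 30.6 and 30.9 CPM in recovery and 35.4, 29.7 and 28.96 CPM in control libraries, 1.58-fold higher than in recovery animals (edgeR adjusted p = 0.025). *act-5*, the actin of intestinal microvilli, was 1.5-fold higher at 244, 250 and 217 against 177, 142 and 157 CPM (edgeR adjusted p = 0.01). Of 116 genes in the lysozyme and antimicrobial list, 4 were called, all higher, with a median log2 fold change of 0.14. They were the saposin-like genes *spp-18* and *spp-25*, at 1.53-fold and 1.37-fold, and *asp-6* and *asp-14*, at 1.4-fold and 1.3-fold (edgeR adjusted p = 0.014, 0.02, 0.005 and 0.038), which encode aspartic proteases and not antimicrobial peptides. Both *asp* genes are also among the calls of the intestinal protease list, so the lists are not separate. *asp-6* was at 1732, 1834 and 1780 CPM in exposed, 1168, 1244 and 1409 CPM in recovery and 1861, 2181 and 1964 CPM in control libraries, so that recovery was the low group. The test between recovery and control (edgeR adjusted p = 0.00011) uses the same recovery libraries and is no separate support. The C-type lectin genes *clec-86* and *clec-149* were 1.4-fold higher each, 2 of 158 of their family, a share near the 0.919% of all genes called higher (edgeR adjusted p = 0.022 and 0.0073). Without exposed replicate 2 all of these 8 calls ended, at adjusted p of 0.05 to 0.27 where each was weakest. That of *asp-6* held without each of the other 5 libraries, and the other 7 also ended without recovery replicate 3. Those of *pept-1*, *act-5*, *spp-18* and *spp-25* ended too without recovery replicate 2, those of *clec-86*, *spp-18* and *spp-25* without recovery replicate 1, that of *spp-25* without exposed replicate 1, and that of *asp-14* without any one library.

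In a second group of genes it was the recovery animals that stood apart. *apc-17*, a subunit of the anaphase-promoting complex (chromosome II, 11108128 to 11109583), was at 4.98, 3.42 and 5.04 CPM in exposed, 1.71, 1.6 and 1.53 CPM in recovery and 4.96, 4.18 and 4.92 CPM in control libraries. Exposed and control libraries overlapped and all 6 exceeded the recovery libraries, by 2.76-fold in exposed animals (log2 fold change 1.46 with an SE of 0.23, edgeR adjusted p = 0.0021). The test between recovery and control (edgeR adjusted p = 0.00018) uses the same recovery libraries and is no separate support. *mpc-2*, a subunit of the mitochondrial pyruvate carrier, was at 120, 105 and 115 CPM in exposed, 66.4, 75.6 and 72.9 CPM in recovery and 109, 112.7 and 104.9 CPM in control libraries. Again only recovery was low, by 1.58-fold against exposed animals (log2 fold change 0.66 with an SE of 0.11, edgeR adjusted p = 0.0024). The V-ATPase subunit gene *vha-11*, of the pump that acidifies lysosomes, was at 191, 203 and 178 CPM in exposed, 143, 142 and 139 CPM in recovery and 173, 169 and 170 CPM in control libraries. The 3 groups did not overlap, and exposed animals were 1.35-fold above recovery animals (log2 fold change 0.43 with an SE of 0.06, edgeR adjusted p = 0.00028).

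The calls of *apc-17*, *mpc-2* and *vha-11* were kept in all 16 alternative settings. *pqn-15*, a gene of the glutamine and asparagine-rich family, was at 0.979, 0.928 and 1.11 CPM in exposed, 0.247, 0.187 and 0.458 CPM in recovery and 0.928, 1.21 and 0.783 CPM in control libraries, a 3.41-fold difference between exposed and recovery animals at low counts (edgeR adjusted p = 0.014). It was not called by DESeq2 or without exposed replicate 2, recovery replicate 1 or recovery replicate 2 (edgeR adjusted p up to 0.092). *suca-1*, a subunit of succinyl-CoA ligase of the citric acid cycle, was 1.31-fold higher, at 115, 128 and 112 CPM in exposed, 91.4, 85.8 and 93.1 CPM in recovery and 101.6, 99.1 and 99.1 CPM in control libraries (edgeR adjusted p = 0.0016). Controls lay between the other groups, so recovery alone did not stand apart for *suca-1*. In comparisons that share these libraries, exposed against control was called (edgeR adjusted p = 0.032) and recovery against control was not (adjusted p = 0.21). Its call between exposed and recovery animals was also kept in all 16 settings.

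*F42A10.7*, of unassigned function, was 1.88-fold higher at 19.8, 26.3 and 18.3 against 12.4, 10.66 and 11.1 CPM, with controls at 12.8, 9.99 and 10.8 CPM (edgeR adjusted p = 0.0013). Here the exposed libraries were the high ones, and the call held in all 16 settings. The yolk protein gene *vit-4* was 1.39-fold higher, at 1100, 1084 and 1021 against 771, 739 and 804 CPM, and controls lay between at 871, 890 and 948 CPM (edgeR adjusted p = 0.0026), also in all 16 settings. *vit-1* was 1.37-fold higher, at 1338, 1341 and 1207 against 1036, 919 and 882 CPM, with controls at 966, 863 and 957 CPM (edgeR adjusted p = 0.01). Its call ended without exposed replicate 2 and without recovery replicates 2 and 3, at adjusted p up to 0.081. The more abundant *vit-2* and *vit-6* were not called, at 1.19-fold and 1.32-fold (edgeR adjusted p = 0.29 and 0.11). Of 6 vitellogenin genes 2 were called, both higher, where 0.919% of all genes tested were called higher. The median log2 fold change of the list was 0.37. Of the yolk genes, which share long stretches of sequence, separate levels are uncertain.

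A few cuticle, muscle and neuropeptide genes were called higher, in libraries whose marker sums differed as given above. Counts by list are to be read against the 0.919% of all genes called higher. *col-178*, a cuticle collagen, was at 1355, 1514 and 1139 CPM in exposed, 859, 725 and 834 CPM in recovery and 1078, 1146 and 1259 CPM in control libraries, 1.66-fold higher than in recovery animals (log2 fold change 0.73 with an SE of 0.12, edgeR adjusted p = 0.0024). Exposed and control libraries overlapped, recovery lay below both, and the call was kept in all 16 settings. *col-160* and *col-140* were 1.78-fold and 1.65-fold higher (edgeR adjusted p = 0.01 and 0.014), which made 3 of 154 collagen genes, with a median log2 fold change of 0.29. The muscle genes *mlc-3*, a myosin light chain, and *tnt-2*, a troponin T, were 1.74-fold and 1.67-fold higher, at 656 ± 98 against 378 ± 11.5 CPM and 509 ± 53.2 against 305 ± 8.52 CPM (mean ± SD over n = 3 libraries, and by edgeR an adjusted p = 0.036 and 0.049). The neuropeptide genes *nlp-13* and *nlp-56*, 2 of 131, were 1.5-fold and 1.69-fold higher (edgeR adjusted p = 0.0099 and 0.01).

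*nlp-13* was at 16.99, 16.6 and 16.14 CPM in exposed, 11.5, 10.74 and 10.8 CPM in recovery and 15.3, 17.2 and 14.96 CPM in control libraries, so that again recovery was the low group. Its call, and those of *col-160* and *col-140*, ended without exposed replicate 2 and without recovery replicates 2 and 3. That of *nlp-56* ended without recovery replicates 1 and 2. That of *mlc-3* ended without each library but exposed replicate 3 and that of *tnt-2* without any one library, and both ended when the cuticle score entered the fit as a covariate. Adjusted p in these settings reached 0.095 for *col-160*, 0.13 for *col-140*, 0.067 for *nlp-13*, 0.085 for *nlp-56*, 0.15 for *mlc-3* and 0.18 for *tnt-2*. None of 80 cytosolic ribosomal protein genes was called, although their median log2 fold change was 0.28.

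F-box genes, whose products choose proteins for ubiquitination by SCF ligases, were the largest family among the lower calls. Of 262 tested 9 were called, all lower in exposed animals (0.528% of all genes were called lower), with a median log2 fold change of -0.29. *fbxb-57* was at 0.979, 0.904 and 0.823 CPM in exposed, 1.73, 2.06 and 1.76 CPM in recovery and 1.04, 0.867 and 1.29 CPM in control libraries, 2.04-fold lower in exposed than in recovery animals (log2 fold change -1.03 with an SE of 0.22, edgeR adjusted p = 0.013). The recovery libraries were high and the other groups overlapped. *fbxb-103* was at 2.05, 2.76 and 3.16 CPM in exposed, 4.25, 4.54 and 4.61 CPM in recovery and 2.5, 2.56 and 3.50 CPM in control libraries, 1.68-fold lower in exposed than in recovery animals (edgeR adjusted p = 0.019). *fbxb-34*, *fbxb-42*, *fbxb-43*, *fbxb-48*, *fbxb-81* and *fbxb-84* were between 1.54-fold and 1.96-fold lower (edgeR adjusted p of 0.022 to 0.04). For *fbxb-81* the mean was 1.299 CPM in exposed, 2.087 CPM in recovery and 1.797 CPM in control libraries. Its control libraries overlapped both other groups, so recovery alone did not stand apart. The paralogues of this family are similar and mostly near 1 to 5 CPM, so reads may be shared between them and few counts lie behind each value.

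In the ninth, *fbxa-182*, exposed libraries were the low ones, at 4.98, 4.42 and 5.998 CPM. Recovery libraries were at 7.60, 8.04 and 9.59 CPM and control libraries at 6.93, 7.12 and 8.61 CPM. The gene was 1.64-fold lower in exposed than in recovery animals (edgeR adjusted p = 0.008). Its call ended without exposed replicate 2 and without recovery replicate 3 (adjusted p up to 0.092). All 8 *fbxb* calls ended without exposed replicate 2 and without recovery replicate 2, and adjusted p without 1 library reached 0.09 for *fbxb-57* and 0.21 for *fbxb-43* and *fbxb-81*. With the cuticle score as a covariate *fbxb-57* was still called, and *fbxb-34*, *fbxb-42*, *fbxb-43*, *fbxb-48*, *fbxb-81*, *fbxb-84* and *fbxb-103* were not. The score itself was higher in exposed than in recovery libraries, and its part in the F-box result was not tested further. Of 19 *skr* genes, which encode the Skp1 partner of F-box proteins, none was called, with a median log2 fold change of -0.19. Of 79 MATH and BTB genes, which serve the cullin 3 ligases, *btb-17* alone was called, 1.85-fold higher, where 0.919% of all genes tested were called higher. Its exposed replicate 2 at 4.03 CPM stood above replicates 1 and 3 at 2.13 and 1.96 CPM (edgeR adjusted p = 0.038, and 0.48 without replicate 2).

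Other lower calls also had their high level in recovery animals. *T24B8.7* (chromosome II, 9041510 to 9053664) was at 171, 146 and 175 CPM in exposed, 232, 233 and 222 CPM in recovery and 156, 136 and 162 CPM in control libraries, 1.4-fold lower in exposed than in recovery animals (log2 fold change -0.48 with an SE of 0.08, edgeR adjusted p = 0.0026). *F53A2.9* (chromosome III, 13355638 to 13359356) was at 6.08, 4.47 and 4.96 CPM in exposed, 8.51, 9.43 and 8.14 CPM in recovery and 5.08, 4.07 and 4.39 CPM in control libraries, 1.68-fold lower (log2 fold change -0.75 with an SE of 0.12, edgeR adjusted p = 0.0026). For both protein-coding genes, of unassigned function here, exposed and control libraries overlapped below recovery, and both calls were kept in all 16 settings.

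Further lower calls with this pattern included some genes of transcription and signalling and an autophagy adaptor, named singly and not counted as a class. The transcription factor gene *skn-1* was called higher, and none of 204 nuclear hormone receptor genes was called. *cbp-1*, the homologue of the histone acetyltransferases CBP and p300, was at 138, 122 and 144 CPM in exposed, 158, 177 and 160 CPM in recovery and 130.1, 119.4 and 128 CPM in control libraries, 1.23-fold lower in exposed than in recovery animals (edgeR adjusted p = 0.031). The histone demethylase family gene *jmjd-3.2* and the ETS family transcription factor gene *ets-7* were 1.62-fold and 1.59-fold lower (edgeR adjusted p = 0.021 for both), and *sepa-1*, an autophagy adaptor that removes P granule proteins in embryos, 1.58-fold lower (adjusted p = 0.0093). *egl-10*, a regulator of G protein signalling chosen after its values were seen, was at 31.4, 26.0 and 30.6 CPM in exposed, 44.3, 47.8 and 42.1 CPM in recovery and 25.3, 23.4 and 28.7 CPM in control libraries, 1.52-fold lower (edgeR adjusted p = 0.012). In all 5 genes exposed and control libraries overlapped and every recovery library lay above them. All 5 calls ended without exposed replicate 2 and without recovery replicate 2. That of *jmjd-3.2* also ended without recovery replicate 3, that of *sepa-1* without exposed replicate 1, that of *cbp-1* without each library but exposed replicate 3 and that of *ets-7* without any one library. In edgeR the adjusted p reached 0.28 for *cbp-1*, 0.21 for *jmjd-3.2*, 0.099 for *ets-7*, 0.074 for *sepa-1* and 0.13 for *egl-10*.

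A smaller group was lower in exposed animals than in both others. *cng-1*, a cyclic nucleotide-gated channel gene, was at 2.42, 2.08 and 2.89 CPM in exposed, 3.67, 4.68 and 5.04 CPM in recovery and 4.64, 3.73 and 3.80 CPM in control libraries, 1.8-fold lower than in recovery animals (log2 fold change -0.85 with an SE of 0.15, edgeR adjusted p = 0.0028). The test against control (edgeR adjusted p = 0.007) uses the same exposed libraries and is no separate support. *ugt-48*, the single call among 63 UDP-glucuronosyltransferase genes, which couple foreign compounds to sugars (list median log2 fold change 0.04, with 1.45% of all genes called), was 1.52-fold lower at 12.9, 9.48 and 13.8 against 15.2, 19.3 and 20.6 CPM, with controls at 22.2, 22.04 and 17.5 CPM (edgeR adjusted p = 0.015). *pals-23* and *pals-24*, of a family known for its part in the response to intracellular pathogens, were 1.56-fold and 1.57-fold lower, 2 of 23 tested with a median log2 fold change of -0.35 (edgeR adjusted p = 0.015 and 0.023). *pals-23* was at 20.8, 14.9 and 19.1 CPM in exposed against 24.1, 31.6 and 29.7 CPM in recovery and 29.7, 30.8 and 27.5 CPM in control libraries, and exposed replicate 2 was the lowest. Without that replicate the calls of all 4 genes ended, and those of *ugt-48*, *pals-23* and *pals-24* also ended without recovery replicates 2 and 3 (adjusted p up to 0.05 for *cng-1* and 0.22 for *pals-24*).

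Genes of the DNA damage response were not called. *egl-1* was at 2.22, 1.88 and 2.28 CPM in exposed, 1.28, 1.52 and 0.865 CPM in recovery and 1.04, 1.21 and 1.03 CPM in control libraries. All exposed libraries were above the other 6, by 1.73-fold over recovery, but the gene did not pass the test (log2 fold change 0.79 with an SE of 0.25, edgeR adjusted p = 0.11). *cep-1* itself was at 65.3 ± 1.14 CPM in exposed against 65.4 ± 1.91 CPM in recovery animals (mean ± SD over n = 3 libraries, and by edgeR an adjusted p = 0.99). *ced-13* was below 0.1 CPM in every F1 library and was not tested. None of 67 DNA repair, 68 replication and cell cycle and 41 meiosis genes was called, with median log2 fold changes of -0.06, -0.04 and -0.04. The recombinase gene *rad-51* was at 85.4 ± 2.00 against 78.9 ± 2.79 CPM and *brc-1* at 45.3 ± 2.65 against 43.7 ± 2.01 CPM (edgeR adjusted p = 0.38 and 0.86). Of 26 genes of the CEP-1 pathway and apoptosis the one call was *cbp-1*, a coactivator, which was lower, where 0.528% of all genes tested were called lower.

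Germ cell genes gave no calls either: none of 38 oocyte, 29 major sperm protein, 59 other sperm, 59 small RNA pathway or 51 histone genes, with median log2 fold changes of 0.05, 0.01, -0.09, -0.07 and -0.03. The same held for 33 proteasome, 14 chaperonin, 27 iron and metal, 111 moulting, 204 nuclear hormone receptor and 87 long intergenic non-coding RNA genes. *ftn-1*, a ferritin gene, was at 1.90, 2.25 and 1.91 CPM in exposed, 2.84, 2.70 and 3.36 CPM in recovery and 4.71, 5.65 and 4.64 CPM in control libraries. The 3 groups did not overlap, and the gene was called between exposed and control (edgeR adjusted p = 0.037) but not between exposed and recovery animals (adjusted p = 0.48). A p that misses the threshold does not show that the levels were equal.

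**Figure D4:**
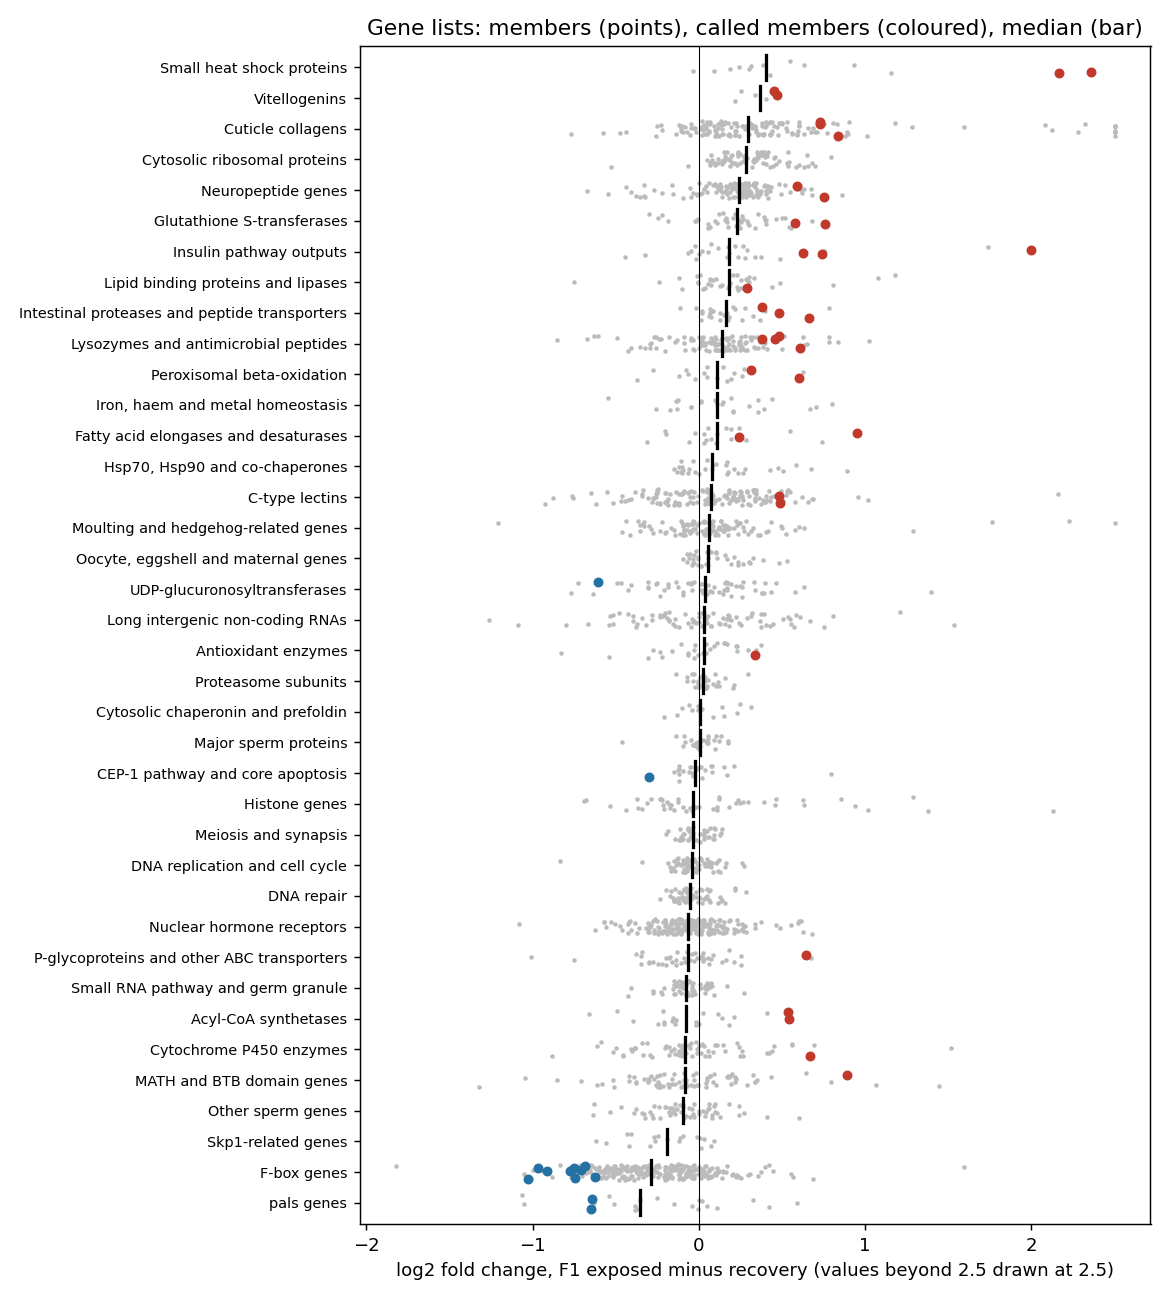
Log2 fold change of exposed over recovery animals for each tested member (points) of each gene list, with called members in red (higher) and blue (lower) and the list's median as a bar. Called members are few in every list, and the 9 F-box calls all lie below 0.

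Called genes also differed in kind. Of the 162 genes higher in exposed animals 48 lie on the X chromosome (29.6%), and of the 93 lower genes 7 do (7.5%), where 13.8% of all genes tested are X-linked. Over all X-linked genes the median log2 fold change was 0.03, and over autosomal genes -0.01. Higher calls had a median exonic length of 1.07 kb and a median level of 55 CPM, and lower calls 2.40 kb and 14.6 CPM, against 1.25 kb and 8.54 CPM over all genes tested. Whether a gene is called depends on its counts, and no comparison with genes of matched level was made. The lists held 34 of the 162 higher and 13 of the 93 lower calls, and 2461 of the 17627 genes tested.

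The same contrast was made in F2 and F3, in libraries that do not enter the F1 groups. There the exposed line was irradiated again in each generation and the recovery line had been unirradiated since F0. In F2 a single gene was called (0.00567%), *R09E10.2*, at a log2 fold change of 1.82 (edgeR adjusted p = 8.5e-07), and in F3 it was 2.07 (adjusted p = 5.9e-08). In F3 296 genes were called (1.68%), 144 higher (0.817%) and 152 lower (0.862%). Leaving out F3 exposed replicate 1, 2 or 3 gave 18, 976 or 5 calls, and leaving out F3 recovery replicate 1, 2 or 3 gave 75 higher and 29 lower, 844 or 3 calls. Of the 296 F3 calls with all libraries, 8 were also F1 calls, which is 3.14% of the F1 and 2.7% of the F3 calls, and all 8 had the same direction. Besides *R09E10.2* they were *acox-1.5*, *C27C7.1*, *Y87G2A.2* and *nduf-7*, a subunit of respiratory complex I, which were higher, and the cadherin gene *cdh-4*, *vet-6* and *sdz-28*, which were lower.

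*C27C7.1* had the largest F1 difference among these after *R09E10.2*, 1.99-fold at 29.6, 26.7 and 23.3 CPM in exposed against 14.3, 11.9 and 13.7 CPM in recovery libraries (edgeR adjusted p = 0.012), and its log2 fold change was 0.80 in F3 (adjusted p = 0.045). *nduf-7* was at 249.7 ± 4.51 against 199.6 ± 1.404 CPM in F1 (mean ± SD over n = 3 libraries, and by edgeR an adjusted p = 0.012) and had a log2 fold change of 0.27 in F3 (adjusted p = 0.042). *acox-1.5* had a log2 fold change of 0.45 in F3 (edgeR adjusted p = 0.04) and 0.16 in F2 (adjusted p = 0.88). *egl-1*, not called in F1, was called in F3 at a log2 fold change of 1.03 (edgeR adjusted p = 0.042). Without F3 recovery replicate 3 only 3 genes were called in F3, so most of the 8 shared calls cannot have held there. The F3 calls were not followed gene by gene through such fits. *hsp-16.48* and *hsp-16.1* had log2 fold changes of 1.70 and 1.89 in F2 and of 0.11 and -0.35 in F3, none of them called (edgeR adjusted p = 0.65, 0.59, 0.94 and 0.78). The difference from F1 was not called for either gene (adjusted p of 0.15 to 0.94).

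Over all F1 calls, 67.1% had the same sign in F3, where 55.6% of all genes tested did, and 43.5% in F2, where 47.1% did. Median log2 fold changes of the 162 higher calls were 0.48 in F1, -0.00 in F2 and 0.09 in F3, and of the 93 lower calls -0.61, 0.10 and -0.08. Calls were selected for a large F1 difference, so the F1 medians cannot be compared in size with those of F2 and F3. The difference between generations was also tested, but the F1 contrast is one side of that test. Of the genes it called between F2 and F1, 60 were F1 calls, and all 60 had a difference opposed to F1. Selection of the F1 calls therefore bears on these genes too, and those named here were chosen from the F1 calls. The contrast differed between F2 and F1 in 86 genes (0.488%), among them *vha-11*, *mpc-2*, *suca-1*, *F42A10.7*, *col-178*, *vit-4*, *T24B8.7* and *F53A2.9*, and in none between F3 and F1. The latter count was 176 by DESeq2, and 2450 genes had an unadjusted edgeR p under 0.05 for it.

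**Figure D5:**
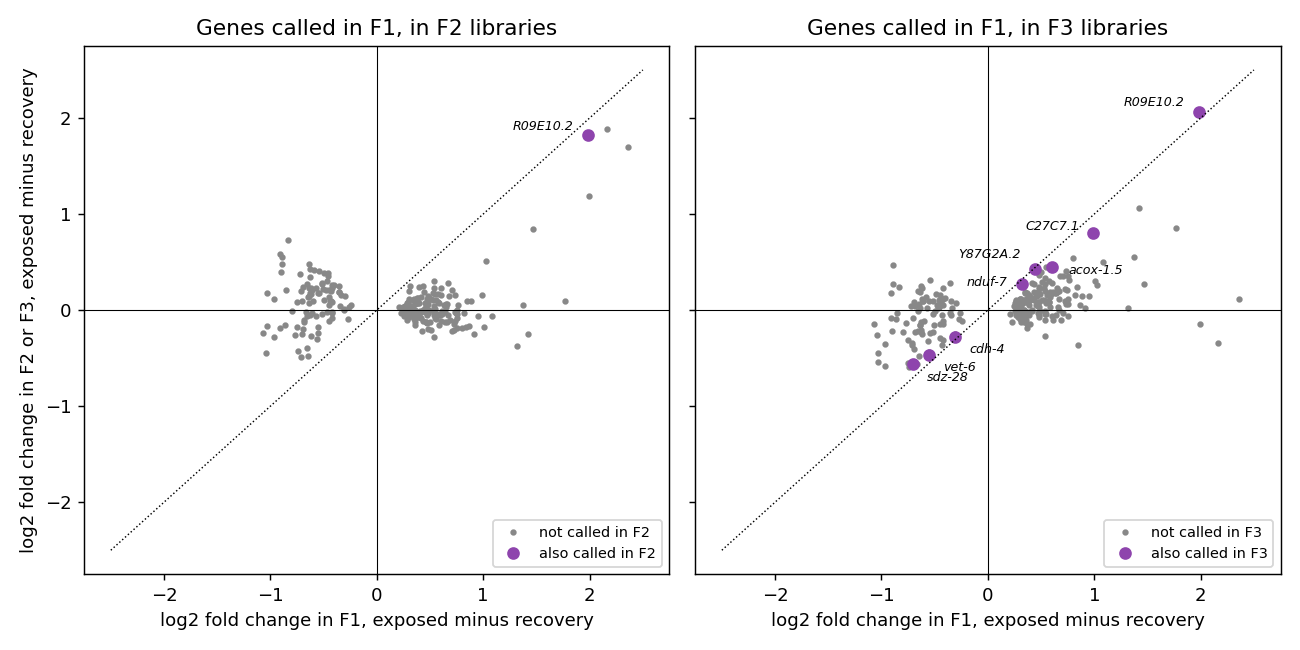
Log2 fold change of exposed over recovery animals in F2 (left) and F3 (right) against that in F1, for the 255 genes called in F1. Purple points were called in both generations, 1 gene in F2 and 8 in F3, and the dotted line marks equal values.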

How the data were processed

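RNA of whole animals was sequenced from 33 libraries. Per the labels' protocols these were strand-specific, with fragments near 350 bp and paired reads of 150 bases. STAR and DESeq2 1.22.2 are named, per the submitters' processing notes, with no step given for either. Not given in the sources used here: genome build, counting program and strand setting. Raw counts per gene are what the deposited files hold, and the authors made them from the reads, for 46778 identifiers. The WBcel235 annotation held 46603 of them and gave positions, and 43818 had a symbol. At most 0.0267% of a library's counts lay in genes left untested.

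Sample titles gave the groups. The series is said to have biological replicates, and nothing says whether separate irradiations lie behind them, so p-values measure the spread between libraries. The test was edgeR 4.0.16 (quasi-likelihood F, robust, TMM) in R 4.3.3. A single model held the 33 libraries with a coefficient for each of the 11 groups, which leaves 22 residual degrees of freedom and pools the spread over groups. After filterByExpr 17627 genes were left, 16800 with a symbol, and "called" means a Benjamini-Hochberg adjusted p below 0.05 across them. The common biological coefficient of variation was 0.119. SEs are approximate, being derived from the F statistic. The alternatives, 16 for the F1 comparison, were DESeq2 1.42.0, its size factors in edgeR, no filter, smaller fits, a block, covariates and single libraries left out.

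Named genes were the 15 largest changes each way among called genes with separate groups, a symbol of letters, hyphen and number and 1 CPM or more as the higher mean, the 10 smallest p, up to 4 called members of each list, and genes of earlier results. The text names fewer. The members, lists and rules were chosen with earlier results of these data known. *C27C7.1*, *Y87G2A.2*, *nduf-7*, *cdh-4*, *vet-6*, *egl-10*, *hsp-16.2*, *hsp-16.41*, *vit-2*, *vit-6*, *rad-51* and *brc-1* were added after their values were seen.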

Additional observations from a re-analysis of the deposited data

Results flagged for a closer look

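The exposed against recovery difference was not the same in F1 and F2 for 86 of 17627 genes, by a test of the difference itself in edgeR (adjusted p under 0.05). For the named genes the values below are the F2 log2 fold change minus the F1 one, so that a negative value means a smaller or opposite difference in F2 for genes that were higher in exposed F1 animals. The differences were -1.16 for *F42A10.7* (edgeR adjusted p = 0.0064), -1.02 for *cln-3.3*, a homologue of the human lysosomal gene CLN3 (adjusted p = 0.045), -1.02 for *col-160* (0.045), -0.93 for *col-140* (0.045) and -0.87 for *col-178* (0.012). They were -0.78 for *mpc-2* (edgeR adjusted p = 0.012), -0.74 for *act-5* (0.04), -0.52 for *vit-4* (0.028), -0.46 for *suca-1* (0.012) and -0.43 for *vha-11* (0.012). Among genes lower in exposed F1 animals they were 1.06 for *cng-1* (edgeR adjusted p = 0.017), 0.91 for *fbxa-182* (0.035), 0.84 for *F53A2.9* (0.024), 0.69 for *T24B8.7* (0.0064) and 0.44 for *cbp-1* (0.045). The F1 contrast is one side of this test, and the genes named were chosen from the F1 calls. Groups of 3 libraries were not tested for outlying samples.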

How the results depend on the processing

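The count of 255 F1 calls moved past 1.5 times under DESeq2 (495), in fits of the 9 F1 libraries (704) or the 6 compared (1050) alone, and without F3 recovery replicate 3 and F3 control replicate 3 (399). Those F3 libraries had the fewest genes with a count in the series, 18240 and 19610. The count of F1 calls was 26 to 213 without 1 library. It was 181 with a replicate block, 215 without the filter, 260 with DESeq2's size factors, 310 with ribosomal RNA share and 253 with cuticle score in the model, and 278 without ribosomal RNA genes. The causes were not tested. Deviations from the group means correlated at 0.010, -0.222 and 0.017 in same-numbered libraries and at -0.196 to 0.174 in differently numbered ones. With 3 libraries per group these correlations cannot exclude pairing. The main fit took no pairs, and the replicate block is the fit that did. Without 1 library the exposed against control count was 91 to 203 (259 with all), recovery against control 186 to 470 (495), F2 exposed against recovery 1 to 3 (1), F3 exposed against recovery 3 to 976 (296), F2 minus F1 9 to 164 (86) and F3 minus F1 0 to 12 (0). DESeq2 gave 412 for exposed against control, 809 for F3 exposed against recovery, 273 for F2 minus F1 and 176 for F3 minus F1. Without the filter F3 exposed against recovery was 128 and F3 minus F1 13. The replicate block gave 45 for F3 exposed against recovery and 52 for F2 minus F1. Of 73 named F1 calls 11 were kept in all 16 settings and none changed direction; 60 were lost without exposed replicate 2, 52 without recovery replicate 2 46 without recovery replicate 3, 22 each without exposed or recovery replicate 1, 15 without exposed replicate 3, 19 with the cuticle score, 12 with the replicate block and 10 without the filter. Genes near 1 CPM rest on few counts. Leaving out libraries for the side comparisons was added after the data were seen.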

Other observations

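The V-ATPase subunit genes *vha-9* and *vha-14* were chosen after their values were seen, and the other subunits of the complex were not counted. *vha-9* was at 243, 274 and 251 CPM in exposed, 217, 217 and 210.2 CPM in recovery and 247, 245 and 244 CPM in control libraries, 1.19-fold higher in exposed than in recovery animals (edgeR adjusted p = 0.024). *vha-14* was at 261, 267 and 259 CPM in exposed, 231, 233 and 216 CPM in recovery and 262, 249 and 248 CPM in control libraries, 1.16-fold higher (edgeR adjusted p = 0.02). For both genes recovery was the low group and the other 2 overlapped. The call of *vha-9* ended without each library but exposed replicate 1 (log2 fold change 0.20 to 0.29, edgeR adjusted p up to 0.23), and that of *vha-14* without exposed replicate 2 and without any recovery replicate (0.18 to 0.23, adjusted p up to 0.15).

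Exposed replicate 2 was the highest library in several higher calls that the named-gene rule gave. *spin-3*, a homologue of the lysosomal transporter Spinster, was at 2.48, 3.93 and 2.52 CPM in exposed against 1.56, 1.12 and 1.53 CPM in recovery libraries, 2.11-fold higher (edgeR adjusted p = 0.012). *cln-3.3* was at 2.82, 4.15 and 2.79 against 1.96, 1.79 and 1.6 CPM, 1.82-fold higher (edgeR adjusted p = 0.01). *sdz-24* was at 11.2, 18.1 and 10.1 against 7.14, 7.27 and 7.51 CPM, 1.8-fold higher (edgeR adjusted p = 0.0088). All 3 calls ended without exposed replicate 2, where the log2 fold change was lowest, and without recovery replicate 2, and that of *cln-3.3* also without recovery replicate 3 (edgeR adjusted p up to 0.18, 0.17 and 0.16).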
